A study of Mus musculus with 28 samples.

Results

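The 8 genes Ezh2, Ezh1, Eed, Suz12, Jarid2, Phf1, Mtf2 and Phf19 encode the subunits and main accessory factors of Polycomb repressive complex 2 (PRC2). They were taken by name from the deposited tables, where each has 1 row among the 22138 genes with an RNA value and 1 row among the 22138 promoters with chromatin values. The study examined mouse primordial germ cells (PGCs), from which sperm and eggs later form, at stage E13.5, when testis and ovary can be told apart and female germ cells are entering meiosis. Germ cells were sorted from gonads for the surface antigen SSEA1, and the SSEA1-negative fraction served as gonadal soma.

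The question put to these cells was what happens when Setdb1, which encodes a methyltransferase for lysine 9 of histone H3, is deleted. KO germ cells carry Setdb1 delta/- (n = 2 RNA libraries per sex). They were set against Het germ cells (n = 4 per sex), which pool Het1, Setdb1 delta/+, and Het2, Setdb1 flox/-, with 2 libraries of each per sex, so every Het control carries 1 disrupted or deleted copy. WT germ cells were Setdb1 flox/+, with 1 library per sex, and stayed outside the tests. A further male PGC library and a male soma library came from wild-type C57BL/6 mice. For H3K27me3 and H3K9me3 there was 1 ChIP library per sex and genotype (KO delta/- and Het flox/-), plus H3K9me3 from male C57BL/6 soma. The sources used here do not give the line that drives deletion, nor whether a library is 1 embryo or a pool. The p-values therefore measure the spread between libraries, which may be technical.

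PRC2 places methyl groups on lysine 27 of histone H3, and the trimethylated form, H3K27me3, marks the silent promoters of developmental regulators. Its core holds a catalytic subunit (Ezh2 or the weaker Ezh1), the scaffold Suz12 and Eed, which binds H3K27me3 and stimulates the enzyme. Accessory factors sort the complex into forms: the Polycomb-like proteins Phf1, Mtf2 and Phf19, which bind methylated lysine 36 of H3 through a Tudor domain and CpG-rich DNA, define one form, and Jarid2, a catalytically inactive member of the Jumonji family, belongs to the other.

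The promoters of the 3 members whose RNA differed between the sexes are shown for their CpG content, since CpG-rich DNA is where PRC2 is recruited. All 8 members matched the RefSeq promoter table (build GRCm38.p6), with 10 start sites in all. Each sequence is the 250 bases before the start, 5′ to 3′ on the gene's strand, with each CpG in capitals. The values below were made on build mm9, so these windows are given for their sequence and not as measured regions.
Phf19: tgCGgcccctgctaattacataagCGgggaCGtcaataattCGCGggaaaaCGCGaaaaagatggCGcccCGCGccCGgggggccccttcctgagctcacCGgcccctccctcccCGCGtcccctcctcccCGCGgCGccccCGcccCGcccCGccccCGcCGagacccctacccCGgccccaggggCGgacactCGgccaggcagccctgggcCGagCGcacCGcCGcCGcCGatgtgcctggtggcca
Mtf2: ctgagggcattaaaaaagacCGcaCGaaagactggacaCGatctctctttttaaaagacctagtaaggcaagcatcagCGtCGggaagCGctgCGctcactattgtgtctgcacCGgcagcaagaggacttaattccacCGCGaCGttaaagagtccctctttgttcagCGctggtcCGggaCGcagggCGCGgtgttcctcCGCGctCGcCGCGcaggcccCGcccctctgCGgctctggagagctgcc
Eed: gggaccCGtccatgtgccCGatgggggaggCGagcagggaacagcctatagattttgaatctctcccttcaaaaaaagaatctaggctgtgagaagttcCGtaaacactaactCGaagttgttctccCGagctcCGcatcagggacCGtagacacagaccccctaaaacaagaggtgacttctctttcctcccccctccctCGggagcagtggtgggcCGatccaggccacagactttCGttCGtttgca
The Phf19 window lies at chr2:34913977-34914226 on the minus strand, the Mtf2 window at chr5:108065424-108065673 on the plus strand and the Eed window at chr7:89980977-89981226 on the minus strand. Phf19 held 31 CpGs, Mtf2 23 and Eed 12, against a median of 6 over all 32851 promoter windows. Suz12 had 37, Ezh2, Phf1 and the first listed Jarid2 start 23 each, the other Jarid2 start 22 and Ezh1 14. A second Mtf2 start had 2. Thus 9 of the 10 windows lay above the median of all promoters. The E2F-type motif TTTCCCGC, searched on both strands, was present once in Phf19, where its upstream edge is 208 bases before the start, and once in Suz12, 219 bases before the start. It was found in 0.895% of all windows, and its variant TTTGGCGC, found in 0.417%, was in none of the 10. The box CCAAT, found in 33.8% of windows on either strand, occurred in Ezh2 (3 copies), Suz12, the first listed Jarid2 start and the second Mtf2 start. A match describes the letters and not a bound site.

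Levels are in RPKM (read number per kilobase of gene, scaled by the authors to library size), which scales for gene length and so permits comparison between genes. Read depth is unknown, since the files give no counts. All 8 members had at least 3.25 RPKM in every PGC library. In female Het PGCs the order by mean RPKM was Suz12 (80.0 ± 20.5), Jarid2 (71.1 ± 6.23), Mtf2 (56.1 ± 12.1), Phf19 (56.1 ± 3.69), Ezh2 (48.2 ± 2.02), Eed (41.3 ± 6.11), Ezh1 (12.6 ± 1.39) and Phf1 (6.18 ± 0.889; SD, n = 4 each). The libraries of Suz12, Jarid2, Mtf2 and Phf19 overlapped from each to the next, as did those of Ezh2 and Eed, whereas Ezh1 and Phf1 stood apart from the rest and from each other. In male Het PGCs the order was Mtf2 (84.7 ± 3.53), Suz12 (78.5 ± 19.3), Jarid2 (71.4 ± 3.68), Eed (56.7 ± 0.936), Ezh2 (43.5 ± 6.86), Ezh1 (15.6 ± 5.21), Phf19 (8.65 ± 0.853) and Phf1 (4.89 ± 1.25; SD, n = 4 each). Only Mtf2, Suz12 and Jarid2 overlapped with a neighbour there. Phf19 held the fourth place in females and the seventh in males.

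**Figure D1:**
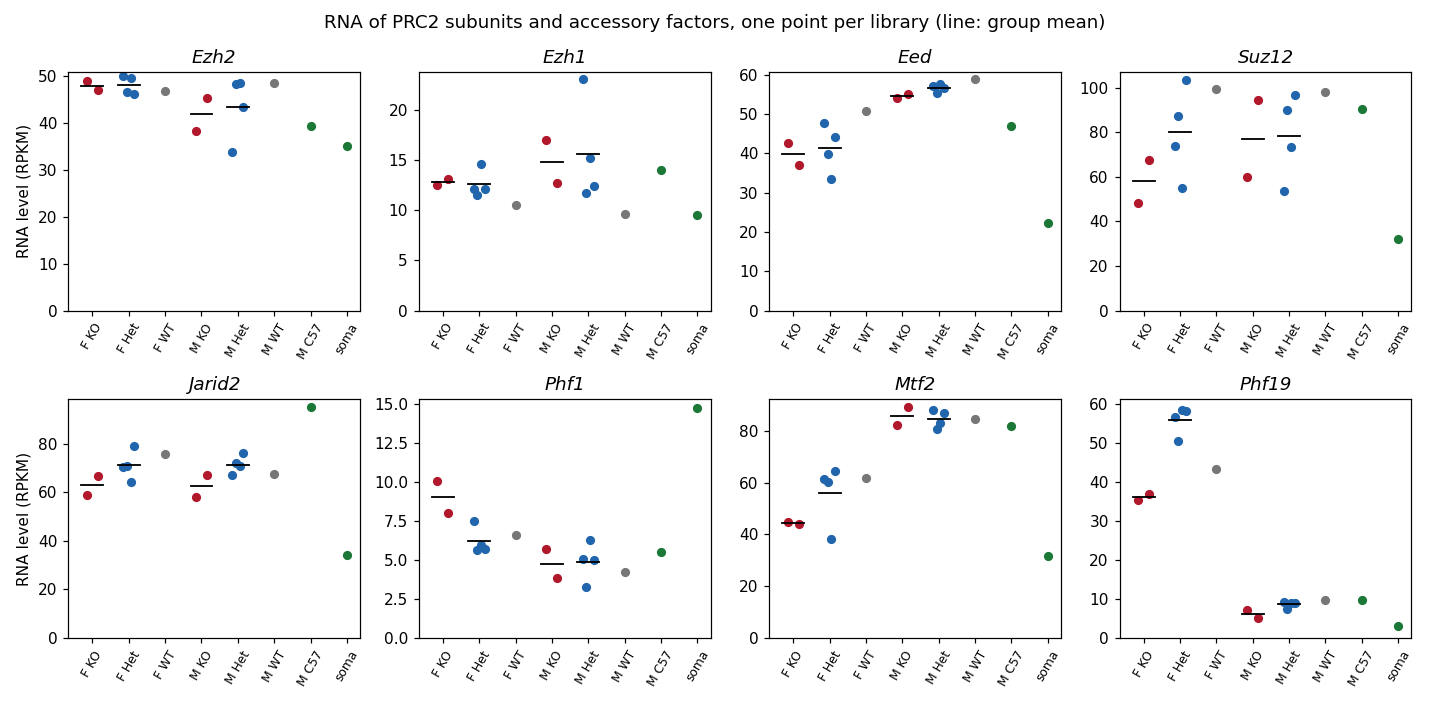
RNA level in RPKM (vertical axes, from 0) of each member, with 1 point per library and a line at the mean of groups with more than 1 library; F is female, M male, C57 the C57BL/6 PGC library and soma the C57BL/6 SSEA1-negative cells. Phf19 lies at 35.53 to 58.57 RPKM in all female germ cell libraries and at 5.02 to 9.85 RPKM in all male ones.

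Sorted identity was checked on marker genes. The 8 germ cell markers found in the table summed to 1062 to 2059 RPKM in the KO and Het PGC libraries and to 13.96 RPKM in soma. The 5 markers of female meiotic germ cells summed to 519.5 to 601.4 RPKM in female KO and 252.1 to 923.2 in female Het PGCs. In males they summed to 73.3 to 95.48 RPKM in KO and 52.1 to 99.78 in Het PGCs. All 5 were higher in female than in male Het PGCs by limma, as were 17.6% of tested genes. Of the 5 Leydig cell markers, 4 were higher in male KO than in male Het PGCs by limma, against 0.614% of tested genes. With quantile normalization 3 were. The 5 summed to 26.87 and 56.14 RPKM in male KO, against 3.42 to 5.32 in male Het PGCs, while soma had 674.1 RPKM. The male WT and C57BL/6 PGC libraries, with Setdb1 present, had 19.84 and 11.74 RPKM. In females the same markers summed to 5.61 and 6.08 RPKM in KO and to 4.88 to 12.06 in Het. The 6 stromal markers summed to 35.23 and 47.81 RPKM in female KO against 13.49 to 36.47 in female Het, and to 27.1 and 33.16 in male KO against 14.58 to 31.65 in male Het PGCs, with 0 of 6 passing in either sex by limma and 2 of 6 at an unadjusted p under 0.05 in each, against 12.4% of tested genes in females and 4.55% in males. Other lists separated the groups less well. The 3 endothelial markers summed to 18.56 to 66.77 RPKM in female Het PGCs, against 32.55 in soma. The 3 erythroid markers in the table summed to 0 to 257.05 RPKM in female Het PGCs, against 2643.29 in soma. The 4 male germ cell markers summed to 4.7 to 74.36 RPKM in male Het and 4.09 to 11.13 in female Het PGCs. Setdb1 RNA was lower in KO than in Het, at 33.0 ± 2.38 against 45.7 ± 9.05 RPKM in females and 29.2 ± 2.89 against 46.1 ± 6.25 in males (SD, n = 2 and n = 4). Its mean log2 difference of -0.54 (SE 0.13) did not pass (limma, adjusted p = 0.0783). In bulk samples, fewer cells of a type and less RNA per cell cannot be told apart.

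Phf19 RNA was lower in Setdb1 KO than in Het germ cells, and it was the 1 member of 8 that passed. It passed only in the average of the sexes and close to the threshold. In females it stood at 35.53 and 36.86 RPKM in the KO libraries, against 56.71, 50.66, 58.57 and 58.28 RPKM in the Het libraries. In males it stood at 7.24 and 5.02 RPKM in KO, against 9.28, 7.39, 8.95 and 8.98 RPKM in Het. In each sex both KO libraries lay below all 4 Het libraries, though in males KO replicate 1 came close to the lowest Het library. A lower value without overlap in both sexes was found in 63 genes, 0.466% of the 13518 tested. Changes were tested with limma on log2(RPKM + 1), with p-values adjusted by Benjamini-Hochberg over those 13518 genes and a threshold of 0.05. Averaged over the sexes, the log2 difference was -0.53 (SE 0.11, adjusted p = 0.0386), so that KO held 69.1% of the Het value on this scale. Under that test 141 genes changed (1.04%), of which 4 fell (0.0296%). Beside this, the summed germ cell markers stood at 1062 and 1344 RPKM in female KO against 1535 to 1821 in female Het, and at 1767 and 1970 RPKM in male KO against 1864 to 2059 in male Het PGCs, with 0 of 8 passing by limma in the average and 3 of 8 at an unadjusted p under 0.05, where 12.6% of all tested genes stood. Their part in the Phf19 result was not tested.

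Within a sex the fall of Phf19 did not pass. The log2 difference was -0.62 in females (SE 0.16, limma adjusted p = 0.138) and -0.45 in males (SE 0.16, limma adjusted p = 0.665). No member was among the 55 genes called in females (0.407%) or the 83 called in males (0.614%), and Phf19 was the only member at an unadjusted p under 0.05 in either sex, which 12.4% of tested genes reached in females and 4.55% in males. The difference between the 2 sexes' effects was -0.17 for Phf19 (SE 0.22, 95% interval -0.65 to 0.32), and no member was among the 7 genes whose effect differed by limma (0.0518%), nor among the 3.65% at an unadjusted p under 0.05. The female WT library had 43.33 RPKM of Phf19, between the KO and Het libraries of its sex, and the male WT library had 9.85 RPKM, above them. The averaged call is near the threshold: of 20 alternatives, 12 gave adjusted p-values of 0.0506 to 0.391. Removal of any 1 library ended the call except female Het2 replicate 1, male Het1 replicate 2 or male KO replicate 1, and so did either Het genotype as the only control and a pseudocount of 0.1 (adjusted p = 0.0553 by limma), while the log2 difference kept its sign throughout, at -0.65 to -0.42.

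The other Polycomb-like genes did not pass in KO. Phf1, whose product binds trimethylated lysine 36 of H3, had 10.07 and 8.02 RPKM in female KO, against 7.5, 5.63, 5.92 and 5.67 RPKM in female Het PGCs. Both KO libraries lay above all Het libraries, an order shared by 14.8% of genes, and the log2 difference was 0.48 (SE 0.24, limma adjusted p = 0.427). Male Phf1 stood at 5.69 and 3.82 RPKM in KO against 5.02, 3.25, 6.3 and 4.97 in Het, with overlap. Soma had 14.72 RPKM of Phf1, more than any PGC library, and the stromal marker sums given above were likewise higher in female KO than in 3 of the 4 female Het libraries. The 5 Sertoli cell markers summed to 51.76 and 57.26 RPKM in female KO against 21.25 to 41.54 in female Het, and to 533.5 RPKM in soma. The female WT library, with Setdb1 present, had 50.09 RPKM. Of that list, Amh and Dhh averaged only 0.395 and 0.16 RPKM in female KO. The 4 pregranulosa markers overlapped, at 8.91 and 11.72 RPKM in female KO against 4.64 to 9.4 in female Het. The part of any of these lists in the Phf1 values was not tested. Mtf2 had 44.95 and 43.89 RPKM in female KO, against 61.65, 60.15, 38.14 and 64.54 RPKM in female Het PGCs. Its female difference of -0.30 (SE 0.18, limma adjusted p = 0.558) had 1 Het library, Het2 replicate 1, below both KO libraries. Without that library and male Het1 replicate 1, the pair least like the others of their sex, the female difference was -0.47 with a limma adjusted p of 0.0374, a setting chosen after the data were seen. Male Mtf2 was 82.24 and 89.5 RPKM in KO and 80.65 to 88.14 RPKM in Het.

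Neither catalytic subunit passed. Ezh2 averaged 48.0 ± 1.42 RPKM in female KO and 48.2 ± 2.02 in female Het, and 41.8 ± 4.88 in male KO and 43.5 ± 6.86 in male Het PGCs (SD, n = 2 and n = 4). The 95% interval of its averaged log2 difference was -0.26 to 0.21. Ezh1, which predominates in non-dividing cells of several adult tissues, averaged 12.8 ± 0.361 RPKM in female KO and 12.6 ± 1.39 in female Het, and 14.8 ± 3.03 in male KO and 15.6 ± 5.21 in male Het, with an interval of -0.36 to 0.36. Ezh1 made up 20.4% and 21.7% of the summed Ezh1 and Ezh2 RPKM in female KO, against 19.5% to 22.7% in female Het, and 21.9% and 30.6% in male KO against 19.6% to 40.5% in male Het PGCs. The highest male share came from Het1 replicate 1.

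Of the core scaffold, Eed had an averaged log2 difference of -0.05 (95% interval -0.27 to 0.17, limma adjusted p = 0.92). In males its KO libraries, at 54.1 and 55.18 RPKM, lay just below Het libraries of 55.42 to 57.56 RPKM, an order seen in 4.13% of genes, with a log2 difference of -0.05 (SE 0.15, limma adjusted p = 1). Suz12 had 48.38 and 67.49 RPKM in female KO, against 73.93, 87.34, 55.08 and 103.5 RPKM in female Het, and 59.74 and 94.37 RPKM in male KO, against 53.47, 90.12, 73.58 and 96.74 RPKM in male Het PGCs. The groups overlapped in both sexes, and the averaged interval of -0.67 to 0.20 is the widest of the 8. Jarid2, which binds nucleosomes and stimulates PRC2, had 59.07 and 66.73 RPKM in female KO against 64.07 to 79.23 in female Het, and 57.94 and 67.21 RPKM in male KO against 67.08 to 76.01 in male Het PGCs. Its averaged difference was -0.18 (SE 0.09, limma adjusted p = 0.469). Averaged over the sexes, 7 of the 8 members had a negative difference and the members' median was -0.10, where the median of all tested genes was 0.05. The 8 germ cell markers likewise had 7 negative differences, with a median of -0.28. The members were not tested as a set.

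**Figure D2:**
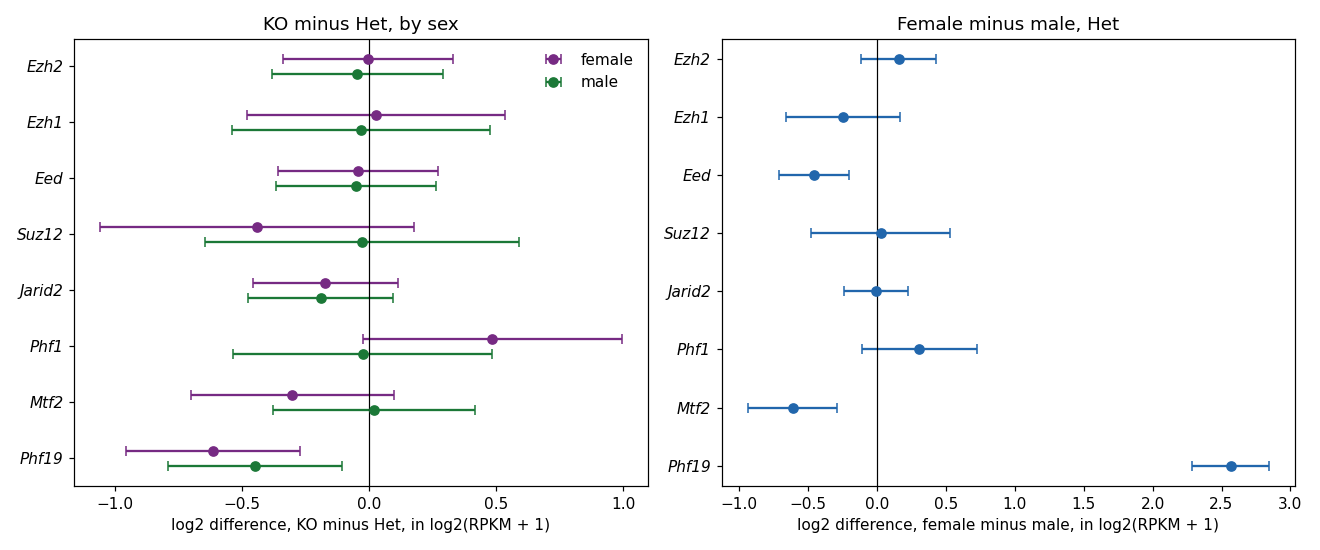
Left, log2 difference in log2(RPKM + 1) of KO minus Het in females (purple) and males (green); right, female minus male in Het. Points are limma estimates and bars their 95% intervals: Phf19 lies at -0.62 and -0.45 on the left and at 2.57 on the right, beyond the other members.

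Some members differed in 1 direction between libraries numbered 1 and 2. Suz12 and Jarid2 were lower in the library numbered 1 than in that numbered 2 in all 6 sets of sex and genotype, and Phf1 was higher in number 1 in all 6. Such orders were found in 8.88% and 10.2% of tested genes, lower and higher in number 1. Ezh1 was higher in number 1 in 5 of 6 sets. The labels do not say what the number stands for. Within number 1 the Phf19 log2 difference of KO minus Het was -0.68 in females and -0.30 in males, and within number 2 it was -0.55 in females and -0.60 in males, all below 0.

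Between the sexes 3 members differed, Phf19 by the largest log2 difference of the 8. In Het PGCs, Phf19 had 50.66 to 58.57 RPKM in females, against 7.39 to 9.28 RPKM in males. The ranges were far apart, and the log2 difference was 2.57 (SE 0.13, limma adjusted p = 5.56e-08), which is 5.92-fold on this scale and ranked 14 of 13518 genes by p. Mtf2 ran the other way, with 61.65, 60.15, 38.14 and 64.54 RPKM in females against 88.14, 80.65, 82.98 and 87.21 RPKM in males (log2 difference -0.61, SE 0.15, limma adjusted p = 0.00856). Eed was also lower in females, with 47.7, 39.92, 33.5 and 44.15 RPKM against 57.18, 55.42, 57.56 and 56.56 RPKM in males (log2 difference -0.46, SE 0.12, limma adjusted p = 0.0116). No female Het library reached a male one for either gene. So 1 member was higher and 2 were lower in females, where 17.6% of tested genes were higher and 14.3% lower. All 3 calls held under each of 18 alternatives.

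The remaining 5 members did not pass between the sexes. The 95% intervals of the female minus male difference were -0.12 to 0.43 for Ezh2, -0.66 to 0.17 for Ezh1, -0.48 to 0.53 for Suz12, -0.24 to 0.22 for Jarid2 and -0.11 to 0.72 for Phf1. In the KO and WT libraries, which that comparison does not set against each other, the 3 sex-different members kept their order. The KO libraries did share its fit and its estimate of spread. In KO the sexes did not overlap for 63.8% of tested genes. Phf19 was at 36.2 ± 0.94 RPKM in female KO against 6.13 ± 1.57 in male KO PGCs (SD, n = 2 each), and at 43.33 RPKM in the female WT library against 9.85 in the male one. Mtf2 was at 44.4 ± 0.75 RPKM in female KO against 85.9 ± 5.13 in male KO, and at 61.76 against 84.6 RPKM in the WT libraries. Eed was at 39.8 ± 3.995 against 54.6 ± 0.764 RPKM in KO and at 50.84 against 58.87 RPKM in WT.

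Within the Polycomb-like trio, Phf19 contributed 39.2% and 41.5% of the summed Phf19, Mtf2 and Phf1 RPKM in female KO and 43.5% to 57.1% in female Het PGCs, against 5.10% and 7.61% in male KO and 8.10% to 9.11% in male Het PGCs. In each sex the KO shares lay below all Het shares, but the female WT library, at 38.8%, lay below both female KO libraries, and the male WT library stood at 9.98%. The summed RPKM of the trio was 88.77 and 90.55 in female KO, against 102.6 to 128.5 in female Het, and 95.2 and 98.3 in male KO, against 91.3 to 102.4 in male Het PGCs, so the female groups did not overlap and the male groups did. The WT sums were 111.67 RPKM in the female and 98.68 in the male library. Among tested genes taken singly, female KO and Het did not overlap for 20.5%, with KO lower for 5.62%. In both sexes KO was lower without overlap for 0.466%. Phf1 contributed 9.03% and 11.1% in female KO against 4.41% to 5.96% in female Het PGCs. In soma Phf1 contributed 29.7% and Phf19 6.36%.

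**Figure D3:**
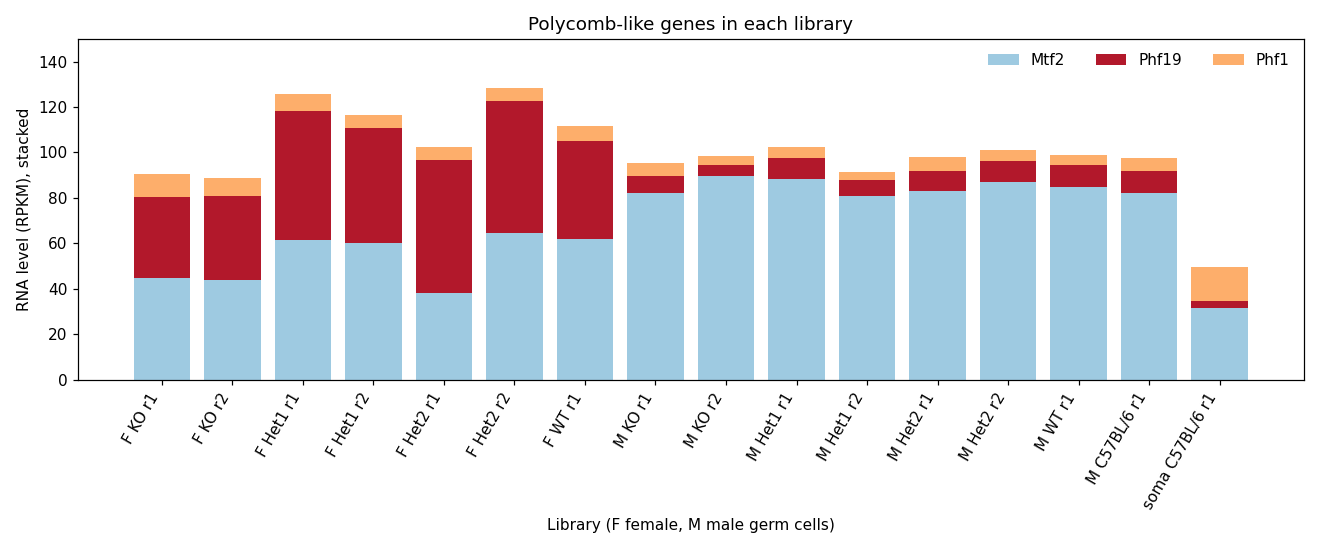
Stacked RNA level in RPKM of Mtf2, Phf19 and Phf1 in each library (1 bar each; F female and M male germ cells, soma the C57BL/6 somatic library). Phf19 is the large middle block of every female bar and the thin one of every male bar, with 5.02 to 9.85 RPKM in males.

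The 5 genes whose profile over the 12 KO and Het PGC libraries was nearest to that of Phf19 were Gbx2, Dusp5, Cubn, Osbp2 and Fgfr3. Likeness was the root mean square difference of log2(RPKM + 1) values after centring each gene, which was 0.27 for Gbx2 and 0.32 for Fgfr3, while the spread of Phf19 itself over these libraries was 1.29. Dusp5, which encodes a phosphatase of ERK, averaged 40.1 RPKM in female KO and 49.9 in female Het, against 8.05 in male KO and 10.6 in male Het PGCs. Gbx2, a homeobox gene, averaged 6.96 and 11.4 RPKM in female KO and Het, against 1.13 and 1.45 in male KO and Het. All 5 were higher in female than in male Het PGCs, which the choice by likeness fixes, and none passed for KO minus Het averaged over the sexes (limma adjusted p = 0.177 to 0.946).

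Other genes of the pathway did not pass in KO. None of the 6 further PRC2 factors, 25 PRC1 genes or 6 genes of the H3K27 demethylases and the BAP1 deubiquitinase passed by limma in females, males or the average, and at an unadjusted p under 0.05 the average held 0, 1 and 0 of them, against 12.6% of all tested genes. Their median averaged log2 differences were 0.07, -0.02 and 0.07, against 0.05 for all tested genes. Between the sexes in Het, 10 PRC1 genes were higher in females, 3 were lower and 12 did not pass, against 17.6% higher and 14.3% lower over all tested genes. PRC1 is the complex that ubiquitinates histone H2A and in part binds H3K27me3. Pcgf5, a ring-finger subunit of variant PRC1, averaged 58.1 RPKM in females against 23.7 in males (log2 difference 1.27). Scmh1, a Polycomb group gene, had 16.4 against 6.89 RPKM (1.13). Phc1, a Polyhomeotic subunit, was lower in females, with 35.9 against 72.0 RPKM (-0.98), and Max, the partner of Mga in variant PRC1, had 35.6 against 65.0 RPKM (-0.85). With each library centred on its median the PRC1 counts were 8 higher and 5 lower.

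Among the enzymes that remove H3K27me3, the X-linked Kdm6a was higher in female Het PGCs, with 18.99 to 28.78 RPKM against 8.34 to 12.81 RPKM in males (log2 difference 1.19, SE 0.21, limma adjusted p = 0.00128). Its Y-linked relative Uty had 0 RPKM in each of the 4 female Het libraries, against 6 to 8.24 RPKM in male Het. Bap1, the catalytic subunit of the H2A deubiquitinase, averaged 47.3 RPKM in females against 66.8 in males (-0.49, limma adjusted p = 0.0212). Of the further PRC2 factors, E130012A19Rik, an elongin-binding partner of PRC2 now named Epop, averaged 7.82 RPKM in females against 4.37 in males (0.68, limma adjusted p = 0.0472) and no longer passed as a gene higher in females with median centring. Of 14 proliferation genes, 5 were lower in female Het PGCs and 0 higher, against 14.3% lower and 17.6% higher over all tested genes. Among the lower ones Mcm2, a replication helicase subunit, averaged 146.1 RPKM in females against 237.1 in males. In KO 0 of the 14 passed by limma, and 0 at an unadjusted p under 0.05.

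Germ cells also differed from soma. In C57BL/6 males, with 1 library each and no replicate check, a gene was called where log2(RPKM + 1) differed by at least 2-fold. Phf19 had 9.82 RPKM in PGCs and 3.15 in soma, Mtf2 82.1 and 31.65, Eed 46.82 and 22.16, Suz12 90.4 and 32.05, and Jarid2 95.33 and 34.1, so these 5 members were past 2-fold higher in PGCs, at log2 differences of 1.05 to 1.47. Phf1 was past it in the other direction, with 5.48 RPKM in PGCs and 14.72 in soma (-1.28). Ezh2 (39.34 and 35.03 RPKM) and Ezh1 (13.98 and 9.51 RPKM) were not past it. Of 13457 genes compared, 17.6% were past 2-fold higher and 28.7% lower. The medians of the 2 libraries differed by -0.34, and median centring took Phf1 to -0.94 and left the other calls.

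The promoters of the members carried little H3K27me3, the mark that PRC2 makes. Promoter values are RPKM within 1 kb of the start on either side, and KO and Het were compared by size only, with no test, because each mark has 1 library per sex and genotype. A call needed a 2-fold difference in the same direction in both sexes (pseudocount 0.1) and an RPKM of 1 or more in KO or Het of both sexes. No member promoter reached RPKM 1 in any H3K27me3 library, so none could be called. Of the 1800 promoters that did, 0.0556% were called. Member values ran from 0.081 to 0.76 in female KO and 0.103 to 0.525 in female Het, and from 0.026 to 0.861 in male KO and 0.069 to 0.379 in male Het PGCs. The Phf19 promoter was the highest member in all 4 libraries.

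At Phf19, H3K27me3 was 0.76 RPKM in female KO against 0.525 in female Het, and 0.861 RPKM in male KO against 0.379 in male Het PGCs. These values stood above 89.5% and 72.5% of all promoters in female KO and Het, and above 85.3% and 62.3% in male KO and Het. The log2 ratio was 0.46 in females and 1.00 in males, so the mark was higher in KO in both sexes at the gene whose RNA was lower there. Both signs above 0 were found at 17.1% of all promoters and both below 0 at 38.3%. Among the members Ezh1 and Jarid2 were also above 0 in both sexes, and Phf1, Eed and Suz12 were below 0 in both. Whether the mark and the RNA of Phf19 are related was not tested, and counts behind such low values are unknown. Between the sexes no member promoter could be called either. The rule called 0.224% of 2237 promoters, and the Phf19 log2 ratio of female to male was -0.16 in KO and 0.38 in Het.

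**Figure D4:**
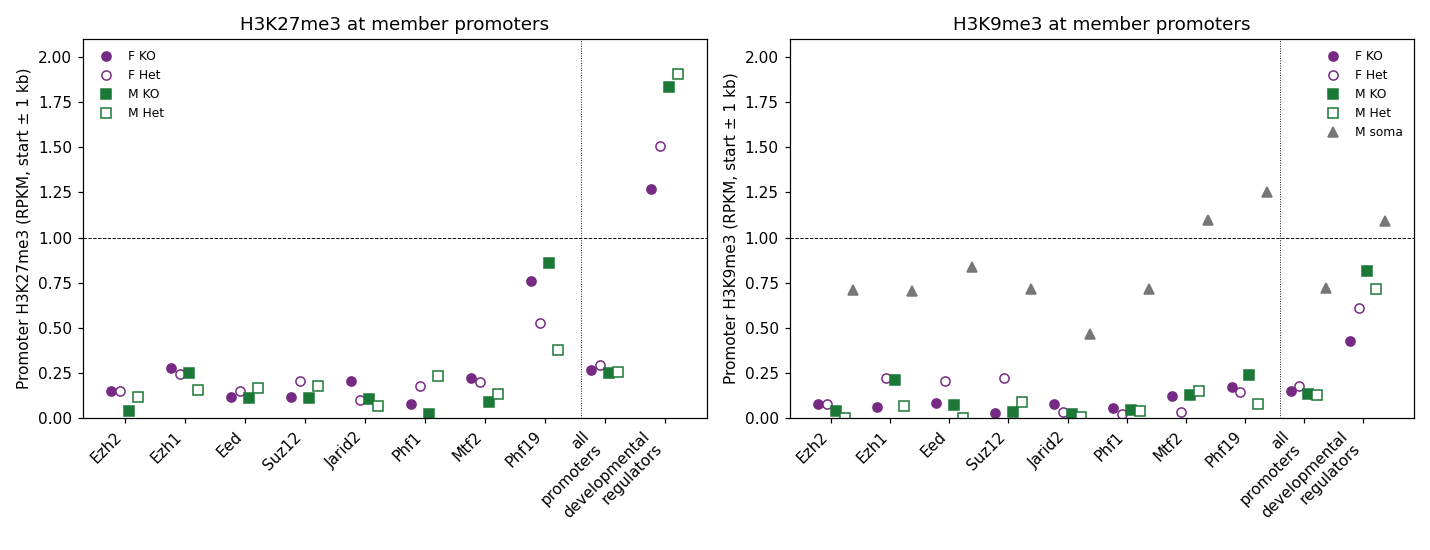
Promoter H3K27me3 (left) and H3K9me3 (right) in RPKM for each member, with the median of all promoters and of 38 developmental regulators at the right of each panel; filled symbols are KO or soma, open symbols Het, and the dashed line marks RPKM 1. Member promoters lie below RPKM 1 in every germ cell library, and Phf19 is the highest of them for H3K27me3.

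H3K27me3 was present in both KO and Het at promoters on which PRC2 is known to act, with 1 library per group. Of 38 listed developmental regulators, 31 reached RPKM 1 in female KO and 36 in female Het. In males 38 did in KO and 36 in Het. These 38 regulators had a median H3K27me3 of 1.27 RPKM in female KO and 1.50 in female Het, against 0.269 and 0.296 over all promoters, and of 1.83 in male KO and 1.91 in male Het PGCs, against 0.249 and 0.254. None of the 37 that could be called was called between KO and Het. Their median log2 ratio was -0.15 in females and 0.08 in males, where that of all 1800 promoters was -0.27 and 0.02. Median H3K9me3 at the 38 promoters also lay above that of all promoters. It was 0.4295 RPKM in female KO and 0.613 in female Het, against 0.149 and 0.179. In males it was 0.8135 RPKM in KO and 0.715 in Het, against 0.136 and 0.127. A level above the median of all promoters was thus not particular to H3K27me3. Of the 38 genes 11 passed the filter on RNA level, and 0 of 11 passed by limma in KO averaged over the sexes (3 of 11 at an unadjusted p under 0.05, against 12.6% of all tested genes). Between the sexes in Het, 3 of the 11 were higher in females and 4 lower, against 17.6% higher and 14.3% lower over all tested genes. The filter needs RPKM 1 in only 2 libraries, so mostly silent genes such as Otx2 and En2 entered through the sex where they are high. That favours a sex difference among the 11, and the count is not read as a result about these genes. Otx2, a homeobox gene of head development, stood at 0 to 0.17 RPKM in females against 9.51 to 11.28 RPKM in males (log2 difference -3.45, limma adjusted p = 1.23e-08), and En2, a homeobox gene of the midbrain, averaged 2.81 against 0.297 RPKM (1.52).

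H3K9me3, the mark Setdb1 makes, was below RPKM 1 at every member promoter in germ cells. It ran from 0.028 to 0.176 RPKM in female KO and 0.024 to 0.225 in female Het, and from 0.024 to 0.242 in male KO and 0 to 0.151 in male Het PGCs, against medians over all promoters of 0.149, 0.179, 0.136 and 0.127. None could be called, and of the 238 promoters at RPKM 1 or more in both sexes 7.56% were called. Phf19 had 0.176 RPKM in female KO against 0.145 in female Het, and 0.242 in male KO against 0.077 in male Het. In C57BL/6 soma, member promoters had 0.467 to 1.252 RPKM, but the soma library was high throughout, with a median of 0.721 over all promoters, and it differs from the PGC libraries in strain and Setdb1 genotype. Only Phf19 (0.077 RPKM in male Het PGCs, 1.252 in soma) and Mtf2 (0.151 in male Het PGCs, 1.1 in soma) reached RPKM 1. Both were past 2-fold lower in PGCs, as were 79.4% of the 4306 promoters compared. With median centring the log2 ratio was -1.04 for Phf19 and -0.36 for Mtf2.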

How the data were processed

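The submitters' processing notes name BWA, SAMtools and build mm9. The sources used here give no versions, no read counter and no strand setting. The deposited RNA table holds RPKM per Ensembl gene, per the file headers, and the deposited promoter table gives RPKM within 1 kb of each start. Values were used as deposited; the files hold no counts, so depth is unknown. Repeat and DNA methylation data were not used here.

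The 12 KO and Het PGC libraries entered 1 fit of 4 group means in limma 3.58.1 (R 4.3.3; lmFit, then eBayes with trend) on log2(RPKM + 1). A gene was tested where 2 or more libraries had RPKM 1 or above (13518 of 22138), two-sided, with Benjamini-Hochberg adjustment over all of them. The pseudocount understates changes of low genes. The fit was tested on simulated data. Comparisons with 1 library per group used a 2-fold rule with no p. Alternatives changed the pseudocount, filter, scaling, controls and replicate block, and left out each library.

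Named are all members, up to 6 genes of each list with the smallest p among those that passed, Setdb1, and the 5 genes most like Phf19. Members, lists and rules were chosen with earlier results of these data known. Of 55 blank or numeric gene names, 39 were replaced from reference names. Promoter sequences are from RefSeq. One listed gene that passed is not reported here by name.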

Additional observations from a re-analysis of the deposited data

Results flagged for a closer look

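Of the 16 sets formed by 8 members and the Het PGCs of each sex, 2 had a library far from the other 3, where chance flags about 1 in 20. Mtf2 in female Het PGCs had 38.14 RPKM in Het2 replicate 1, and the next lowest library had 60.15 RPKM. That library was also the lowest of its group for Eed (33.5 RPKM), Suz12 (55.08 RPKM) and Jarid2 (64.07 RPKM), and the highest for Phf19 (58.57 RPKM) and Ezh1 (14.62 RPKM). Phf1 in female Het PGCs had 7.5 RPKM in Het1 replicate 1, and the next highest library had 5.92 RPKM. Both libraries stayed in the comparisons above.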

How the results depend on the processing

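Over the 8 members and 6 RNA comparisons, 800 alternative values were computed. Of these, 786 stayed on the same side of the threshold, 12 lost the averaged Phf19 call, 1 gained a call (Mtf2 in female KO), 1 took Phf1 out of the 2-fold rule, and 79 changed sign, none of them with a call. Counts over all genes moved more. Called genes were 83 in males, 55 in females, 141 averaged and 7 for the difference between the sexes. A pseudocount of 0.1 gave 30 in females and 0 for the difference. No filter gave 187, 169, 342 and 108. Median centring gave 23 in females and 13 for the difference, and quantile normalization 12 and 13. Het1 alone gave 36, 8, 44 and 1, and Het2 alone 39, 2, 54 and 1. Leaving out each library gave 29 to 88 in males, 3 to 164 in females, 53 to 256 averaged, 1 to 10 for the difference and 3218 to 4375 between the sexes; a lone KO library left in a group was assumed to vary like the other groups. Without male Het1 replicate 1 and female Het2 replicate 1 together, added after the data were seen, there were 588 in females, 566 averaged and 11 for the difference. Between the sexes in Het, the split of 2373 genes higher and 1939 lower became 1955 and 2407 with median centring. The labels do not say whether replicate numbers pair the samples. Deviations of same-numbered libraries correlated above 0.1 in 14 of 15 pairs of groups, and at -0.04 for female Het1 and Het2. Same-numbered libraries thus tended to deviate alike, which the main fit does not model. The replicate block gave 91 genes in females and 11 for the difference, and the averaged Phf19 call had a limma adjusted p of 0.0165. For promoters, a pseudocount of 1 took the called numbers to 0 (H3K27me3 KO against Het, from 1), 1 (H3K9me3, from 18), 0 (H3K27me3 between the sexes, from 5) and 647 (H3K9me3 between PGC and soma, from 3526). Median centring gave 8, 12 and 1322 for the last 3. The causes were not tested. Unknown depth and 2 KO libraries per sex limit what could pass.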
